A study of Mus musculus with 6 samples.

Results

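The 10 imprinted growth regulators described here are Peg3, Peg10, Dlk1, Plagl1, Mest, Zim1, H19, Meg3, Cdkn1c and Grb10, each found by its symbol on 1 of 41388 rows of a gene count table. They were measured in primary fibro-adipogenic progenitors of muscle from wild-type male mice, the mesenchymal cells that can become fibroblasts or adipocytes. All cells were grown with 10% serum and 2.5 ng/mL fibroblast growth factor. For 2 days they received either 500 nM prostaglandin E2 (PGE2), a lipid mediator that raises cyclic AMP through part of its receptors, or vehicle, in 1 dose a day. There were 3 polyadenylated RNA libraries per group, numbered 1 to 3 in each. Whether each library stands for its own animal or culture is not in the labels, so errors describe the spread between these libraries, which may be technical. The genes were selected on their measured counts in PGE2 against vehicle, above all the lower counts of Peg3 and Peg10, together with their known imprinting. Fitted changes of the 10 genes are therefore a description and carry no test of their own.

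An imprinted gene is read from only 1 of its parental copies. The copies are told apart by DNA methylation set in the germ line. Paternally expressed genes are known mostly as promoters of growth, and maternally expressed genes mostly as restraints on it, with exceptions on both sides. In mouse Peg3, Peg10, Dlk1, Plagl1 and Mest are expressed from the paternal copy, and Zim1, H19, Meg3, Cdkn1c and, outside the nervous system, Grb10 from the maternal copy. Several of them form a co-regulated network in mouse fibroblasts and muscle, and Peg3 protein is a known marker of interstitial progenitors of skeletal muscle. Parental origin was not measured here, because the counts sum both copies.

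In mouse the genes lie in clusters that hold oppositely imprinted neighbours. Zim1 and Peg3 are adjacent on chromosome 7, at 6671269 to 6696450 and 6703892 to 6730431 of mm10, with starts 34 kb apart. Dlk1 and Meg3 lie on chromosome 12, at 109452823 to 109463336 and 109541001 to 109571726, with starts 88.2 kb apart. The sequences upstream of these 2 pairs are shown because each pair joins a paternally and a maternally expressed gene. The RefSeq promoter table (GRCm38.p6, the assembly also called mm10) held 7 of the 10 genes, all but Peg10, H19 and Cdkn1c. The lines give the part of the 250 bases before each RefSeq start that lies outside annotated exons, 5′ to 3′ on the gene's strand, with CG dinucleotides in capitals. They cover chr7:6730432-6730577 for Peg3 and chr7:6696451-6696682 for Zim1, both on the minus strand, and chr12:109452573-109452822 for Dlk1 and chr12:109540746-109540995 for Meg3, both on the plus strand.
Peg3: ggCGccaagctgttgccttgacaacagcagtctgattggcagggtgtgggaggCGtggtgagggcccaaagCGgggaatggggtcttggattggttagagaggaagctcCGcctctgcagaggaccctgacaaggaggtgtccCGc
Zim1: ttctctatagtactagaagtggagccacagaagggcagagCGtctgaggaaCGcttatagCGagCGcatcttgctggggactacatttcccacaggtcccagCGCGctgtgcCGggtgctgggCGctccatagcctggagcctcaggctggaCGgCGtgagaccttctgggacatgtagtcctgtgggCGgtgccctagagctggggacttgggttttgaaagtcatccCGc
Dlk1: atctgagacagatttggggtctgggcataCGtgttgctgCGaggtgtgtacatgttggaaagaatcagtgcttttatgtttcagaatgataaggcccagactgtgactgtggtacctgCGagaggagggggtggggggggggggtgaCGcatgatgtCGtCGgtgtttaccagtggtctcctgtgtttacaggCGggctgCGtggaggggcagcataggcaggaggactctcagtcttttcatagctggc
Meg3: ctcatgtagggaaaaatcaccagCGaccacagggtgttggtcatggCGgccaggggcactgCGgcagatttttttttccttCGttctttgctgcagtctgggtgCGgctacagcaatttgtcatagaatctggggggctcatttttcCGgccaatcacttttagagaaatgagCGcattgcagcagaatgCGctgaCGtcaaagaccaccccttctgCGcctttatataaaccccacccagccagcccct

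The full 250 bases held 8 CG dinucleotides for Peg3, 14 for Zim1, 8 for Dlk1 and 10 for Meg3, against a median of 6 over 32851 promoter windows. PGE2 is known to act through cyclic AMP and the factor CREB, so the windows were searched on both strands for the cyclic AMP response element TGACGTCA. It was found in 1.55% of all windows, and among 11 windows of the 7 genes in 2, those of Peg3 and Meg3. It began 178 bases before the Peg3 start and 57 bases before the Meg3 start. The 30 bases around each match are shown with the element in capitals, at chr7:6730579-6730608 on the minus strand for Peg3 and chr12:109540928-109540957 on the plus strand for Meg3.
Peg3 element: actgactccgtTGACGTCAactccgtgcct
Meg3 element: gcagaatgcgcTGACGTCAaagaccacccc
The Peg3 match lies inside the annotated first part of Usp29, a ubiquitin protease gene that starts 147 bases from Peg3 and runs the other way. The shorter core TGACG, which every full element contains, was in windows of Peg3, Meg3, Dlk1 and Grb10 and in 17.8% of all windows. The zinc finger factor PLAGL1 is known to bind GC-rich sites. Its core taken as GGGGCCCC was in 0.889% of windows and, among the 7 genes, in that of Peg3, and the YY1 core GCCATNTT, in 3.91% of all windows, was in none of theirs. These matches describe letters, not bound sites.

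Under PGE2 the fitted log2 fold change (PGE2 over vehicle) of each of the 10 genes was below 0, as it was for 50.2% of all 15186 genes tested. Paternally expressed genes lay between -1.20 and -0.75 and maternally expressed genes between -1.11 and -0.12. Peg3 and Peg10 fell in the unblocked edgeR quasi-likelihood fit at a Benjamini-Hochberg adjusted threshold of 0.05. That is 2 of 10 genes, beside 0.132% of all tested genes called lower and 0.211% called higher. With the library number as a block, called the paired fit below, 8 of 10 fell, beside 7.51%: all 5 paternally expressed genes and Zim1, Cdkn1c and Grb10. H19 and Meg3 did not pass in either fit. The labels do not say that equal library numbers are pairs, and unequal numbers among 2 and 3 also deviated together. Peg3, Peg10, Dlk1 and Zim1, 4 of 10, had an unblocked log2 fold change of -1 or lower, as had 1.3% of all tested genes. Since this comparison shaped the list, nothing is read from these shares. In bulk RNA, fewer cells of a type and less RNA per cell cannot be told apart.

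**Figure D1:**
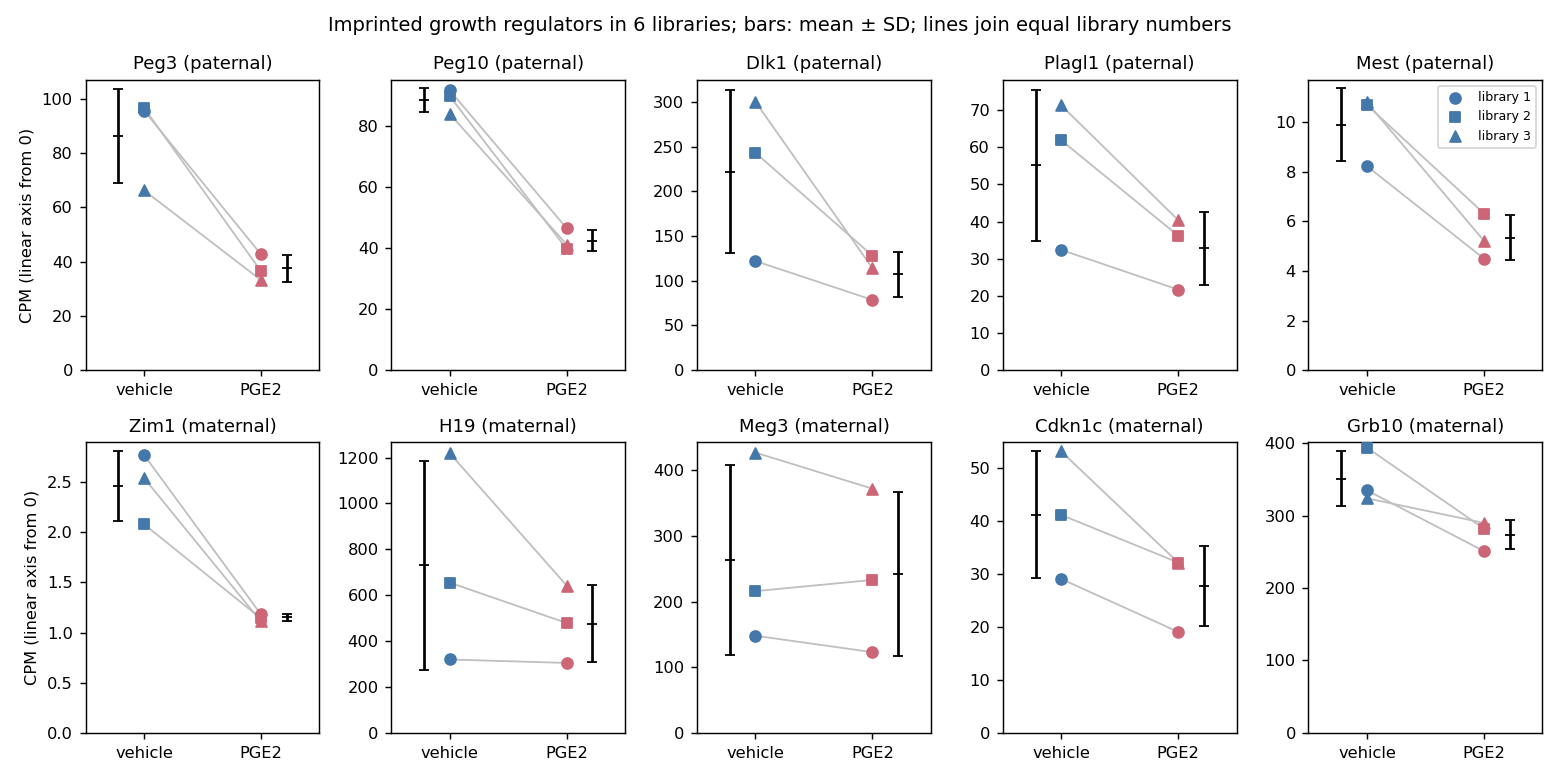
Library-scaled counts (CPM, linear axes from 0) of the 10 genes in 3 vehicle libraries (blue) and 3 PGE2 libraries (red), with grey lines joining equal library numbers and black bars for mean ± SD. Peg10 sat between 83.8 and 91.5 CPM in vehicle and between 39.6 and 46.4 CPM under PGE2, whereas the groups of H19 and Meg3 overlapped.

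Among the paternally expressed genes, Peg3 encodes a large zinc finger protein that binds DNA. In CPM, the usual depth-scaled unit of read counts, here after TMM scaling of the libraries, it was at 95.7, 96.7 and 66.3 CPM in vehicle libraries 1 to 3 and at 42.7, 36.5 and 33.2 CPM in PGE2 libraries 1 to 3. Every PGE2 library was below every vehicle library, and vehicle library 3 was the lowest of its group. The log2 fold change was -1.20 ± 0.166 (SE), or 2.3-fold lower, and -1.19 ± 0.0889 in the paired fit. Peg10 (chromosome 6, 4747306 to 4760517) derives from a retrotransposon and encodes proteins like viral Gag and Pol, needed for the mouse placenta. It was at 91.5, 89.6 and 83.8 CPM in vehicle and 46.4, 39.6 and 41.1 CPM under PGE2. The groups were far apart and narrow, with a mean of 88.3 ± 4.01 CPM (SD, n = 3) in vehicle and 42.4 ± 3.56 CPM under PGE2. Its log2 fold change was -1.06 ± 0.0824.

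Dlk1 encodes a transmembrane protein with epidermal growth factor repeats whose shed part restrains adipocyte formation. It was at 122, 243 and 300 CPM in vehicle and 78.6, 128 and 114 CPM under PGE2. The groups overlapped, because vehicle library 1 was below PGE2 library 2, but within each library number the PGE2 value was lower, by log2 differences of -0.63, -0.92 and -1.40. The unblocked log2 fold change was -1.06 ± 0.346 and did not pass, and the paired one was -0.99 ± 0.13. Plagl1 (chromosome 10, 13060504 to 13131694), a zinc finger transcription factor that can arrest the cell cycle, was at 32.4, 61.9 and 71.3 CPM in vehicle and 21.7, 36.2 and 40.4 CPM under PGE2. Its groups overlapped in the same way, with unblocked and paired log2 fold changes of -0.75 ± 0.345 and -0.73 ± 0.0806. Mest (chromosome 6, 30723547 to 30748465), an enzyme of the alpha/beta hydrolase fold linked to adipocyte growth, was at 8.23, 10.7 and 10.8 CPM in vehicle and 4.5, 6.32 and 5.22 CPM under PGE2. Those groups did not overlap, and the log2 fold change was -0.89 ± 0.175, not past the threshold unblocked.

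Of the maternally expressed genes, Zim1, a zinc finger gene, was lowest in level and nearest in change to the paternally expressed genes. It was at 2.77, 2.08 and 2.54 CPM in vehicle and 1.18, 1.14 and 1.11 CPM under PGE2, from 41 to 119 counts per library. The groups did not overlap, and the log2 fold change was -1.11 ± 0.194 unblocked and -1.10 ± 0.197 paired. Grb10 (chromosome 11, 11930508 to 12038683), an adaptor that dampens insulin and insulin-like growth factor receptors, was at 335, 394 and 324 CPM in vehicle and 251, 282 and 290 CPM under PGE2. Its groups did not overlap either, although its change was small, at -0.36 ± 0.105. Zim1, Grb10, Peg3, Peg10 and Mest made 5 of 10 genes with PGE2 entirely below vehicle, beside 12.2% of all tested genes. Among other imprinted genes, listed below, it was 23.8% of 21 with paternal and 35% of 20 with maternal expression. PGE2 was entirely above vehicle for 0 of the 10 genes and for 2 genes in each of those lists, beside 13.7% of all tested genes.

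Cdkn1c (chromosome 7, 143458339 to 143461050), an inhibitor of cyclin-dependent kinases, was at 29.1, 41.2 and 53.2 CPM in vehicle and 19.1, 32.2 and 32.2 CPM under PGE2. The groups overlapped, and the log2 fold change was -0.57 ± 0.28 unblocked and -0.56 ± 0.0888 paired. Leaving out vehicle library 3 gave -0.34 in the unblocked fit, and leaving out PGE2 library 1 gave -0.36. H19 (chromosome 7, 142575529 to 142578143), a long non-coding RNA that is known to restrain growth, was at 320, 655 and 1219 CPM in vehicle and 305, 479 and 642 CPM under PGE2. Its differences within library numbers were -0.07, -0.45 and -0.93, so library number 1 showed almost none. The log2 fold change was -0.62 ± 0.499 unblocked and -0.48 ± 0.144 paired. Without vehicle library 3 the unblocked value was -0.04, and without vehicle library 1 it was -0.99. Meg3, the long non-coding RNA next to Dlk1, was at 148, 216 and 427 CPM in vehicle and 123, 233 and 372 CPM under PGE2. Its differences within library numbers went both ways, at -0.27, 0.11 and -0.20, and its log2 fold change was -0.12 ± 0.507.

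**Figure D2:**
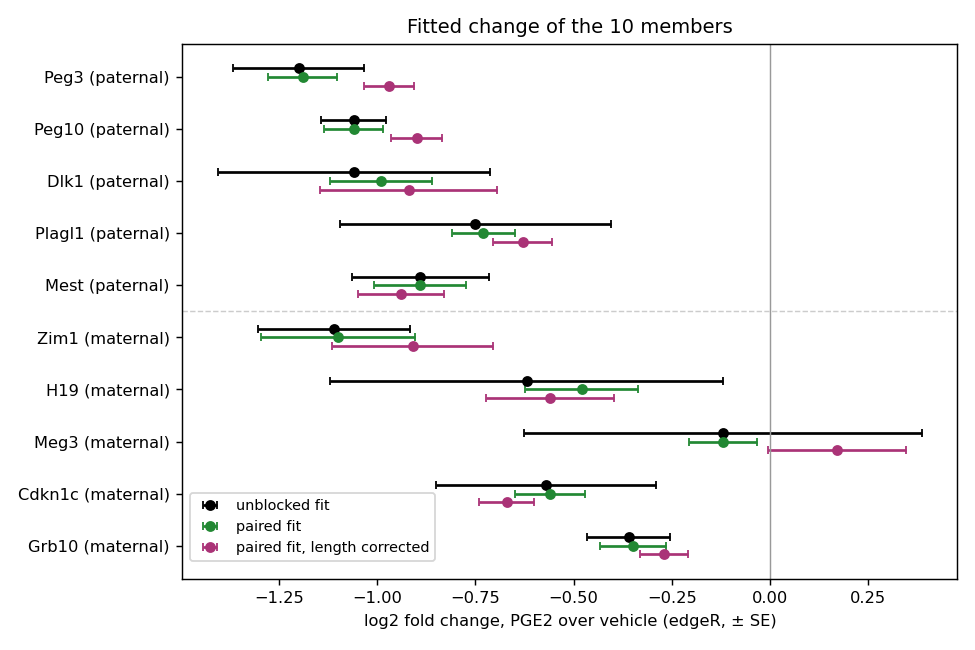
Fitted log2 fold change, PGE2 over vehicle, with standard errors, for the 10 genes (paternally expressed above the dashed line) in the unblocked fit (black), the paired fit (green) and the paired fit with a correction for transcript length (purple). Errors of Dlk1, Plagl1, H19, Meg3 and Cdkn1c were wide unblocked, and Meg3 alone changed sign, from -0.12 to 0.17 with the length correction.

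The unblocked calls depended on single libraries. Peg10 also passed without vehicle library 1, beside 0.116% of genes called lower, and both genes passed without PGE2 library 1, beside 0.229%. Without vehicle library 2 or 3 or PGE2 library 2 or 3, edgeR called 0 of all genes tested, so neither passed. In those fits 5, 5, 6 and 6 of the 10 genes were at an unadjusted p under 0.05, beside 12.1%, 24.1%, 9.71% and 16.7% of all genes, and log2 fold changes of Peg3 and Peg10 stayed between -1.36 and -1.01. In the paired fit 8, 8 and 9 genes passed without library number 1, 2 or 3, beside 4.67%, 4.38% and 17.7% of genes called lower, H19 among them each time and Grb10 only without number 3. With scaling by library totals alone Peg3 and Peg10 passed, beside 0.224%, and with no filter Mest and Zim1 passed too, beside 0.611%. With RLE scaling, or a filter of 1 CPM in 3 libraries, Peg10 passed and Peg3 did not, beside 0.125% and 0.14%. DESeq2 called Peg3, Peg10, Dlk1, Mest, Zim1 and Grb10 lower, 6 of 10 beside 3.27% of tested genes.

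Longer transcripts had lower fold changes across the whole table, and the 10 genes differ in length. The median log2 fold change was 0.16 among the shortest and -0.18 among the longest of 5 equal classes of tested genes. Peg3, Peg10, Plagl1, Zim1 and Meg3 were in the longest class, while Mest, H19 and Cdkn1c were in the next to shortest, whose median was 0.08. With a length correction in the paired fit, the log2 fold changes were -0.97 ± 0.0625 for Peg3, -0.90 ± 0.0651 for Peg10, -0.94 ± 0.11 for Mest and -0.67 ± 0.0698 for Cdkn1c. Then 7 of 10 passed, all lower, beside 7.97% of genes called lower and 8.82% called higher, and Dlk1, at -0.92 ± 0.226, did not. Unblocked with that correction, Peg10 was the 1 gene past the threshold, beside 0.0988% of genes called, 0.0395% lower and 0.0593% higher, and Peg3 was at -0.97 ± 0.135.

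Averaged by parental copy, both sets were lower under PGE2, the paternally expressed one by more. The mean log2 CPM of the 5 paternally expressed genes was 5.92 ± 0.26 (SD, n = 3) in vehicle and 4.95 ± 0.15 under PGE2. That of the 5 maternally expressed genes was 6.46 ± 0.42 and 5.95 ± 0.36. The paternal mean minus the maternal mean was -0.44, -0.36 and -0.83 in vehicle libraries 1 to 3 and -0.77, -0.96 and -1.26 in PGE2 libraries 1 to 3. The groups overlapped, since vehicle library 3 was below PGE2 library 1, while the PGE2 value was lower in each of the 3 library numbers, by -0.33, -0.60 and -0.42. The average difference of -0.45 does not hold for each gene, as the maternally expressed Zim1 was at -1.11 and the paternally expressed Plagl1 at -0.75. No test was made on this difference, because the genes were chosen with results known.

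The 10 genes differed in how much they varied between libraries of 1 group. This is a description, since the same libraries served to choose them and a narrow spread makes a called difference likelier. H19 spanned 3.81-fold, Meg3 2.89-fold, Dlk1 2.46-fold, Plagl1 2.2-fold and Cdkn1c 1.83-fold over the 3 vehicle libraries. Vehicle library 1 was lowest and vehicle library 3 highest for each of these 5 genes, and PGE2 library 1 was lowest for each. A vehicle range as wide as that of H19 was found in 1.53% of tested genes, as wide as that of Meg3 in 3.5% and as wide as that of Dlk1 in 5.55%. Peg10 spanned 1.09-fold, less than most genes, as 86.2% of tested genes had a range at least as wide. Grb10 spanned 1.22-fold, Mest 1.31-fold, Zim1 1.33-fold and Peg3 1.46-fold.

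**Figure D3:**
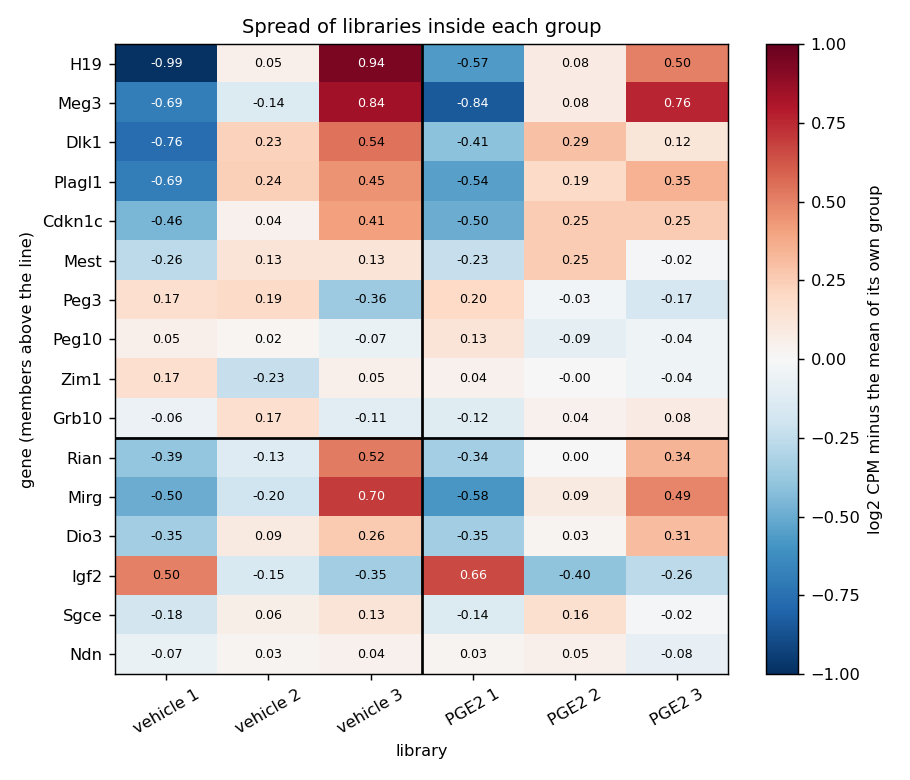
Log2 CPM minus the mean of the library's own group, for the 10 genes (above the line) and 6 other imprinted genes, in each of the 6 libraries. H19, Meg3, Dlk1, Plagl1 and Cdkn1c were low in library 1 of both groups (from -0.99 to -0.41), as were Rian, Mirg and Dio3, whereas Igf2 was high there (0.50 and 0.66) and Peg10 stayed between -0.09 and 0.13.

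Markers of the culture's cell types were set beside these values. The summed level of 16 progenitor markers was 9833, 14992 and 17871 CPM in vehicle and 9365, 15394 and 21572 CPM under PGE2. Most of the difference between library numbers lay in the collagen genes Col1a1 and Col3a1, which summed to 5674, 10058 and 12990 CPM and to 5080, 10705 and 16793 CPM. The other 14 summed to 4159, 4934 and 4881 CPM in vehicle and 4286, 4689 and 4778 CPM under PGE2, with the defining receptor gene Pdgfra between 1122 and 1455 CPM. The summed level of 12 myogenic markers was 236, 70.3 and 46.4 CPM in vehicle and 149, 16.4 and 17.6 CPM under PGE2. Of those, Pax7 and Myf5, which define muscle stem cells, were under 1 CPM in every library. Others were higher, above all in library 1 of each group. Myh3 was at 79, 25.4 and 13.4 CPM in vehicle and 45.9, 3.66 and 5.25 CPM under PGE2. Myog was at 20.9, 3.74 and 2.08 CPM in vehicle and 11.5, 0.62 and 0.87 CPM under PGE2. In the paired fit 5 of 10 tested myogenic markers fell and none rose, beside 7.51% of genes called lower, and with the length correction added 2 of 10 fell, beside 7.97%. The unblocked fit called 0, with 0 at an unadjusted p under 0.05, and DESeq2 called 0. Their part in the values of H19, Dlk1, Igf2 and the other imprinted genes was not tested. Markers of the other types were lower in sum than the progenitor markers. The sum was 583 to 695 CPM for 8 pericyte and smooth muscle genes, above the myogenic sum in every library. Of these genes Pdgfrb had 12382 to 26536 counts per library, and the next highest, Notch3, had 1064 to 2132. For 6 endothelial genes the sum was 18.9 to 46.4 CPM, and for 6 tendon genes 12.5 to 32.7 CPM. It was 8.57 to 12.3 CPM for 5 leukocyte genes and 4.24 to 8.09 CPM for 5 Schwann cell genes. In the paired fit 4 of 16 progenitor markers rose and 5 fell. Ly6a, Thy1, Cd55 and Pi16 rose, by log2 fold changes of 0.62, 0.73, 0.62 and 0.98. Cd34, Col15a1, Gsn, Lum and Mme fell, at -0.59, -0.97, -0.44, -0.66 and -0.33. Of the tested markers of other types, 3 of 8 pericyte, 1 of 4 endothelial, 2 of 3 Schwann cell and 1 of 5 tendon markers fell. In the same fit 2 of 3 leukocyte markers rose. Shares of all tested genes in that fit were 7.51% lower and 6.91% higher. The unblocked edgeR fit called 0 in each of these lists. In it 7 progenitor, 3 pericyte, 2 leukocyte and 2 Schwann cell markers were at an unadjusted p under 0.05, beside 20.1% of all tested genes. DESeq2 called 3 progenitor markers and 1 leukocyte marker higher, beside 2.86%. It called 2 progenitor markers, 1 pericyte marker and 1 Schwann cell marker lower, beside 3.27%. The defining genes Cldn5, Ptprc and Sox10 were at 0 in every library.

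Per kilobase of the longest annotated transcript, H19 was the most abundant of the 10 genes, at 320 ± 199 CPM per kb in vehicle (SD, n = 3). Grb10 followed at 69.4 ± 7.48, then Dlk1 at 47.7 ± 19.6, Cdkn1c at 21.7 ± 6.33 and Meg3 at 18.1 ± 9.99 CPM per kb. Peg10 was at 13.2 ± 0.602, Plagl1 at 10.5 ± 3.86, Peg3 at 9.92 ± 1.99, Mest at 3.72 ± 0.547 and Zim1 at 0.32 ± 0.0454 CPM per kb. Within this order Cdkn1c and Meg3, Meg3 and Peg10, Peg10 and Plagl1, and Plagl1 and Peg3 differed by less than the larger SD of each pair. Under PGE2 Meg3, at 16.7 ± 8.57, stood above Cdkn1c, at 14.6 ± 3.96 CPM per kb, again within the spread. Where isoforms shorter than the longest are in use, these levels are too low.

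Across the 6 libraries, the gene patterns nearest to Peg3 were those of Unc5c, Celf5, Glt8d2, Peg10 and Fam13a, out of 10684 genes that averaged 5 CPM or more. Nearness was the root mean square difference of log2 CPM after centring each gene, 0.0992 for Unc5c, a netrin receptor gene, and 0.168 for Peg10, which ranked 4. Nearest to Peg10 were the proton channel gene Hvcn1 (0.118), the sphingomyelinase gene Smpd3 (0.134), Unc5c, Fam13a and the angiomotin gene Amot. Of the other imprinted growth regulators above that level, Mest came next, at rank 180 from Peg3 and 83 from Peg10. H19 and Meg3 were among the farthest genes, at ranks 10298 and 10480 from Peg3. The measure includes the PGE2 difference on which the genes were chosen, so the nearness of Peg3, Peg10 and Mest follows in part from that choice.

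Neighbours of the called genes did not all move with them. Sgce, the paternally expressed sarcoglycan gene whose start lies 99 bases from that of Peg10 on the other strand, was at 79.8, 94.3 and 99.1 CPM in vehicle and 87.2, 107 and 94.9 CPM under PGE2. Its groups overlapped, with a log2 fold change of 0.08 ± 0.109 (edgeR adjusted p = 0.709, paired 0.489). The ratio of Peg10 to Sgce CPM was 1.15, 0.95 and 0.846 in vehicle and 0.532, 0.37 and 0.433 under PGE2, with no overlap. Because Peg10 was chosen for its lower counts under PGE2, this separation follows from that choice and is only a description. Usp29, next to Peg3, had 2 counts in vehicle library 1 and 0 in the others, where 3 counts correspond to between 0.0569 and 0.143 CPM. Because the strand setting of the counting is not given in the sources used here, reads of overlapping genes, such as the 912 bases shared by Mest and Copg2, cannot be told apart. Copg2, a coat protein gene, was at -0.21 ± 0.0963 (edgeR adjusted p = 0.27, paired 0.0892).

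The ratio of Dlk1 to Meg3 CPM was 0.827, 1.12 and 0.704 in vehicle and 0.641, 0.549 and 0.305 under PGE2, with every PGE2 value below every vehicle value. Both genes were chosen with these counts known, so this ratio too is only a description. In the same cluster the maternally expressed non-coding RNA gene Rian was at 244, 291 and 457 CPM in vehicle and 248, 314 and 397 CPM under PGE2. Its groups overlapped, and its log2 fold change was -0.05 ± 0.271 (edgeR adjusted p = 0.937, paired 0.874). Mirg, a further non-coding RNA gene there, was also at -0.05 ± 0.385, and Dio3, the paternally expressed deiodinase gene that inactivates thyroid hormone, was at -0.03 ± 0.209. Rtl1, a paternally expressed retrotransposon-derived gene in which Meg3-side transcripts run antisense, had 11, 8 and 17 counts in vehicle and 5, 0 and 5 under PGE2. Every PGE2 library of Rtl1 was below every vehicle library, as for 12.2% of all tested genes. On these few counts its log2 fold change was -2.11 ± 0.734 unblocked and -2.05 ± 0.672 paired. It did not pass in either fit (edgeR adjusted p = 0.184, paired 0.0672).

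Igf2, the paternally expressed growth factor gene whose start lies 88.7 kb from that of H19, was at 39.2, 25.1 and 21.7 CPM in vehicle and 27.7, 13.3 and 14.6 CPM under PGE2. The groups overlapped, and the log2 fold change was -0.63 ± 0.346 unblocked (edgeR adjusted p = 0.36) and -0.66 ± 0.0977 paired (0.00225), so it fell in the paired fit. Library 1 was the highest of its group for Igf2 and the lowest for H19, and the ratio of H19 to Igf2 CPM was 8.16, 26.1 and 56.1 in vehicle and 11, 36 and 43.9 under PGE2. Phlda2, a placental growth restraint beside Cdkn1c, had at most 4 counts in any library. In all, 35 tested genes that are not among the 10 started within 250 kb of one of them. The unblocked edgeR fit called 0 of them, and the paired fit called 3 lower, Igf2, Fignl1 and Utrn, which is 8.57% beside 7.51% of all tested genes.

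Other imprinted genes were compared from 2 lists. Of 28 with paternal expression 24 matched the table and 21 were tested, and the unblocked edgeR fit called 0, with 6 at an unadjusted p under 0.05 beside 20.1% of all tested genes. DESeq2 called 1 higher, Nnat, beside 2.86%. The paired fit called 2 higher and 2 lower. Nnat, a proteolipid gene, rose from 1.42 ± 0.24 to 2.7 ± 0.448 CPM (log2 fold change 0.91 ± 0.185, edgeR adjusted p = 0.0113), and Mcts2 rose by 0.46 ± 0.116 (0.0278) but did not pass with the length correction added (0.28 ± 0.119, 0.126). Igf2 fell, as did Rasgrf1, an exchange factor for Ras, from 0.987 ± 0.127 to 0.417 ± 0.228 CPM (-1.27 ± 0.34, 0.0334). Shares of all tested genes in the paired fit were 6.91% higher and 7.51% lower. Ndn, a growth restraint of the Prader-Willi region, was at 159 ± 6.76 and 150 ± 7.6 CPM and did not pass. The list's median paired log2 fold change was -0.08, beside 0 for all genes.

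Of 29 imprinted genes with maternal expression, some only in certain tissues, 27 matched and 20 were tested. The unblocked edgeR fit called 0, with 4 at an unadjusted p under 0.05 beside 20.1% of all tested genes, and DESeq2 called 0. The paired fit called 1 higher and 1 lower, beside 6.91% and 7.51%. Tfpi2, a protease inhibitor gene, rose by 0.35 ± 0.0866 (edgeR adjusted p = 0.0258). Igf2r, the receptor that clears insulin-like growth factor 2, fell by 0.38 ± 0.103 on the log2 scale (0.0371), from 315 ± 46.6 to 241 ± 19 CPM. Neither passed with the length correction, where Cd81 and Atp10a did. The list's median was -0.14, beside medians of -0.99 for the 5 paternally and -0.48 for the 5 maternally expressed growth regulators, whose values shaped their choice.

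**Figure D4:**
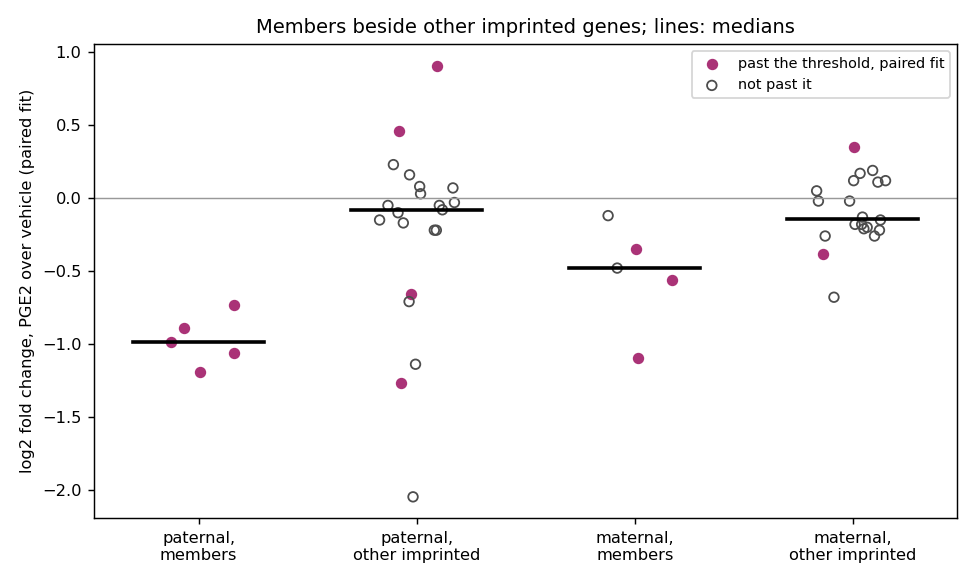
Paired log2 fold change, PGE2 over vehicle, of the 10 growth regulators and of 21 paternally and 20 maternally expressed other imprinted genes, each point a gene, filled where it passed the threshold, with lines at the medians. The medians were -0.99 and -0.48 for the growth regulators and -0.08 and -0.14 for the other imprinted genes.

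Genes taken as partners of these regulators in insulin, Notch, cyclin and p53 signalling formed a list of 22 tested genes. Whether their RNA changes follow from those of the regulators was not tested. The unblocked edgeR fit called 0, with 5 at an unadjusted p under 0.05 beside 20.1% of all tested genes, and DESeq2 called Irs1, Notch1 and Notch2 lower, beside 3.27%. The paired fit called 5 lower and none higher, beside 7.51% and 6.91%. Among them were the cyclin gene Ccnd1 (-0.92 ± 0.0701, edgeR adjusted p = 5.89e-05), the receptor gene Notch1 (-0.86 ± 0.112, 0.00107) and Irs1, which links insulin receptors to their effectors (-0.87 ± 0.132, 0.00438). Notch3 and the cyclin gene Ccna2 also fell, at -0.47 ± 0.1 and -0.30 ± 0.0842. The receptor genes bound by Grb10 did not pass, with Igf1r at -0.11 and Insr at -0.08 in the paired fit. Cdk2, a target of Cdkn1c protein, was at 0.03. The list's median was -0.05.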

How the data were processed

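Gene counts were deposited by the authors as 1 table of whole-number counts for 6 libraries; per the submitters' processing notes the genome build is mm10. The aligner is not given in the sources used here, nor are the counter, annotation and strand setting. Of 41388 genes, 97.5% were found in GENCODE M21, which gave positions and transcript lengths; 37 mitochondrial genes held 0 counts. Library totals were 41988251, 21006044 and 42708381 counts in vehicle and 45811389, 52730962 and 38150216 under PGE2. Counting floors cover counting error only.

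The main test was edgeR 4.0.16 (R 4.3.3), robust quasi-likelihood, TMM scaling, filterByExpr (15186 genes) and Benjamini-Hochberg adjustment at 0.05, checked on simulated data. CPM are counts scaled to a common library size after TMM. Standard errors are the log2 fold change over the square root of F. Libraries of equal number deviated together from their group means, with correlations of 0.621, 0.169 and 0.422. These were above the minimum of 0.1 set for pairing, so the fit with the number as a block is given where calls change. Unequal numbers also passed that minimum. Vehicle library 3 and PGE2 library 2 were at 0.252, above the 0.169 of number 2. Vehicle library 2 and PGE2 library 3 were at 0.145. Pairing by number thus comes from the data, which do not settle it for numbers 2 and 3. The labels do not explain the numbers. Alternatives were DESeq2 1.42.0, other scalings and filters, each library left out, and a lowess length correction (span 0.3). The 10 genes and all lists were chosen with earlier results of these data known. All 10 growth regulators passed the filter and are described; by rule, the 5 genes nearest to Peg3 and Peg10 and up to 6 genes a list with the smallest paired p were named, with set neighbours. Dio3, Rtl1, Ndn, Cd81, Atp10a, Igf1r, Insr and Cdk2 were named after their values were seen.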

Additional observations from a re-analysis of the deposited data

How the results depend on the processing

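The unblocked fit called 52 genes. The count was 2189 with the replicate block, 932 with DESeq2, 285 with no filter, 15 with length correction, 2549 with length correction and block, and 0 to 120 with 1 library left out. Of the 10 growth regulators 2 were called, against 8 with the block, 6 with DESeq2, 4 with no filter, 7 with length correction and block, 1 each with RLE scaling, the 1 CPM filter and length correction, and 0 to 2 with 1 library left out. For other paternally expressed genes the count of 0 became 4 with the block, 1 with DESeq2 and 3 with length correction and block; for other maternally expressed genes it became 2 with the block and 2 with length correction and block. Meg3 reversed from -0.12 to 0.09 with length correction, to 0.17 with the block added, to 0.41 without vehicle replicate 3 and to 0.20 without PGE2 replicate 1, a range of -0.57 to 0.41 with 1 library left out; the cause was not tested. The other 9 growth regulators stayed below 0 in every alternative run, H19 between -0.99 and -0.04 and Cdkn1c between -0.77 and -0.34. The paternal minus maternal mean difference of -0.45 ran from -0.60 to -0.32. It was not computed with DESeq2. Leaving out library numbers under the block was chosen after seeing the data. Depth limits the genes with few counts, such as Usp29, Phlda2, Rtl1 and Rasgrf1.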

Other observations

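Genes that set or keep imprints were a further list, of 20 symbols with 18 tested. Methylation of imprinted regions is kept through cell division by Dnmt1 with Uhrf1, and can be removed through oxidation by the Tet enzymes. The unblocked edgeR fit called 0, with 5 at an unadjusted p under 0.05 beside 20.1% of all tested genes. DESeq2 called Dnmt3l higher and Tet2 and Tet3 lower, beside 2.86% and 3.27%. In the paired fit 1 gene rose and 4 fell, beside 6.91% and 7.51% of all tested genes. Dnmt3l, a cofactor of methylation in the germ line, rose from 1.73 ± 0.146 to 3.56 ± 0.213 CPM (SD, n = 3), with a log2 fold change of 1.03 ± 0.169 (edgeR adjusted p = 0.0037). The oxidases Tet3 and Tet2 fell by 0.61 ± 0.125 and 0.62 ± 0.154 on the log2 scale (edgeR adjusted p = 0.0114 and 0.0252). Smchd1, a chromatin protein of silenced genes, fell by 0.40 ± 0.0994 (0.0245), and Uhrf1 fell by 0.35 ± 0.0989 (0.0403). The list's median was -0.15. Methylation was not measured.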
